A study of Homo sapiens with 16 samples.

Results

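The late part of a time course in MCF10A cells was examined, as the 4 arrays of 36, 39, 42 and 45 hours set against the 4 arrays of 24, 27, 30 and 33 hours after the addition of CP724,714. These are 8 of the 16 arrays of the series, and of 20589 probes the comparison covered 11248, those that 3 or more of the 8 arrays detected (p under 0.05). MCF10A cells are an established, nontransformed line of human breast epithelium, and CP724,714 is a small-molecule inhibitor of the HER2 kinase. All 8 arrays are from cells kept in 1 µM of the inhibitor, in serum-free medium with insulin, EGF and hydrocortisone, and the labels set the 2 sides apart by hours of treatment alone. The arrays of 12, 15, 18 and 21 hours and of 0, 3, 6 and 9 hours, of which the 0 hour array is from untreated cells, serve below as an earlier comparison that shares no array with the late one. RNA came from parallel cultures, with 1 Illumina human Ref8v2 array for each time point and no replicate, so the spread within a side holds the change over its own 4 time points. The methods give a change of medium the day after plating and again when treatment began, so fresh medium came with the inhibitor. No series without the inhibitor was analysed here. The inhibitor therefore cannot be told apart from time in culture or time since the change of medium. An array batch that changed between 33 and 36 hours, which the labels do not name, cannot be told apart from the step described below.

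The deposited intensities had medians of 226.6 to 238.3 at 24 to 33 hours and 210.4 to 242.6 at 36 to 45 hours, and 51.6% to 52.9% and 52.1% to 52.9% of rows were detected. Of the 18 basal epithelial markers, 15 could be tested, and 6 of their 28 probes were not detected on any of the 8 arrays. The tested keratins and adhesion genes among them were bright on both sides on their main probes, except DST. KRT5 had a mean normalized log2 intensity of 15.16 at 24 to 33 hours and 14.99 at 36 to 45 hours, and KRT17 had 13.67 ± 0.10 and 14.39 ± 0.16 (SD, n = 4 time points). The adhesion gene COL17A1 had 12.53 and 13.22, and DST had 6.07 and 6.17. TP73L (TP63) was also dim, with 6.35 at 24 to 33 hours. KRT14, ITGA6 and LAMB3 were detected on too few arrays to be tested. Of the 22 markers of blood, endothelial, fibroblast and other cell types, 8 could be tested, and 15 of their 26 probes were not detected on any of the 8 arrays. PTPRC, the leukocyte antigen CD45, and DCN, a fibroblast proteoglycan, were near background. The myeloid markers CSF1R, CD68 and CD14 were detected on all 8 arrays, with mean log2 intensities at 24 to 33 and at 36 to 45 hours of 9.16 ± 0.10 and 10.24 ± 0.08 for CSF1R, 9.78 ± 0.14 and 10.16 ± 0.10 for CD68, and 6.57 ± 0.06 and 7.59 ± 0.17 for CD14 (SD, n = 4 time points).

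Entry into S phase is driven by E2F transcription factors, which switch on the genes that copy DNA, and the genes of mitosis follow later in the cycle under a separate promoter element called CHR. Growth factor receptors of the EGF and insulin families act in part through AKT, which keeps FOXO transcription factors out of the nucleus. When that signal is low, FOXO factors enter the nucleus and raise genes of cell cycle arrest, catabolism and, in epithelial cells, the receptor ERBB3.

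The 2 sides differed broadly and evenly in both directions. At an adjusted p under 0.05 from limma, 2903 probes (25.8%) were higher at 36 to 45 hours and 2890 (25.7%) were lower. Taking for each gene the probe with the highest mean intensity, 2833 of 10669 genes (26.6%) were higher and 2732 (25.6%) were lower, and these shares are the background for every gene list below. The even split depended on the scaling of the arrays: higher probes were 50.1% of the calls with quantile normalization and 37.9% with median scaling, which gave 2218 higher and 3627 lower. For most genes the difference was small, with a median log2 difference of 0.478 among probes called higher and -0.488 among those called lower. At least a 2-fold difference was reached by 293 of the higher and 324 of the lower probes. The 4 arrays of each side did not overlap for 2563 genes (24.0%) that were higher and 2513 (23.6%) that were lower.

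**Figure D1:**
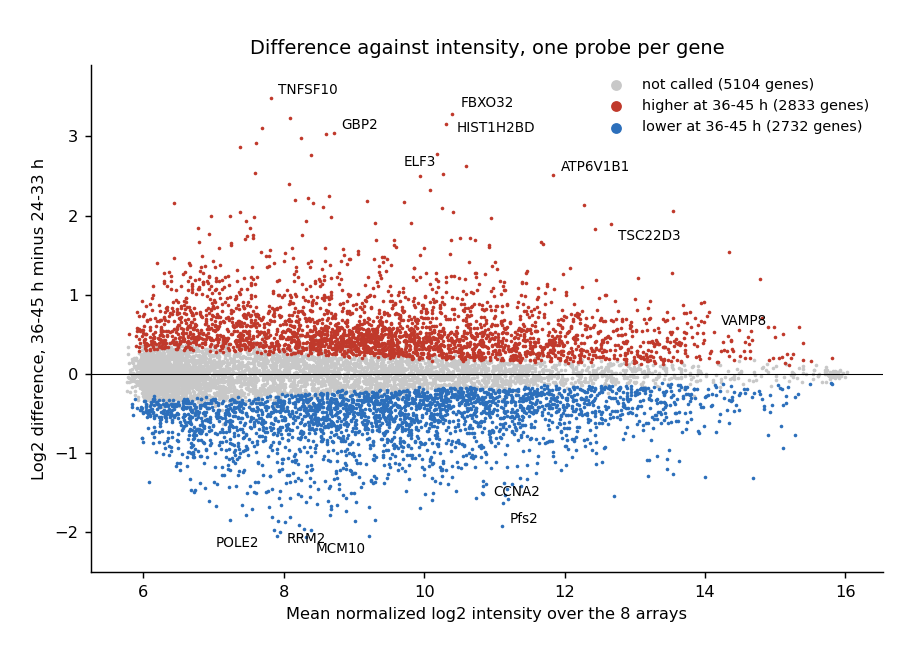
Log2 difference of 36-45 h minus 24-33 h (vertical axis) against the mean normalized log2 intensity over the 8 arrays (horizontal axis), with 1 point for the main probe of each of 10669 genes. The 2833 higher genes (red) reach larger differences than the 2732 lower genes (blue), up to 3.48 for TNFSF10 and down to -2.05 for MCM10.

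Most of the difference arose between 2 neighbouring arrays. From 33 to 36 hours 403 probes rose and 354 fell by at least 1.7-fold, against 16 to 43 rising and 17 to 106 falling at each of the other 6 steps between 24 and 45 hours. The step from 33 to 36 hours was the largest of the 7 for 66.4% of the called probes and for 42.0% of all probes tested, and at the median it made up 74.6% of the difference of a higher probe and 74.8% of that of a lower one. Pairs of arrays within 24 to 33 hours correlated at r = 0.9917 to 0.9957 across probes and pairs within 36 to 45 hours at 0.9907 to 0.9952, while pairs from opposite sides correlated at 0.9589 to 0.9823. When a straight line over the 8 time points was fitted beside a step between 33 and 36 hours, the step itself was called higher for 847 probes (7.53%) and lower for 812 (7.22%), or 833 genes (7.81%) and 781 genes (7.32%). This test is stricter because the line takes up part of any difference between the sides, and its counts rested on the arrays beside the step: leaving out 36 hours gave 415 higher and 424 lower, leaving out 33 hours 452 and 370, and leaving out 30 hours 543 and 462.

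Genes of DNA replication fell as a block. Of 39 tested genes, 38 were lower at 36 to 45 hours and 1 was higher, with a median log2 difference of -1.32, against 25.6% lower and a median of 0.0043 over all genes tested. The step beyond a straight line was called lower for 34 of the 39. In a culture measured in bulk, fewer cells in S phase and less RNA per cell cannot be told apart. MCM10, a replication initiation factor, had log2 intensities of 9.51, 9.40, 9.25 and 9.24 at 24, 27, 30 and 33 hours and 7.80, 7.31, 6.98 and 7.08 at 36, 39, 42 and 45 hours (log2 difference -2.05, SE 0.15, adjusted p = 2.78e-07, limma). Its late arrays all lay below its earlier ones, with the highest late value at 36 hours. POLE2, a subunit of DNA polymerase epsilon, went from 9.10, 9.03, 8.79 and 8.78 to 7.02, 7.0, 6.65 and 6.86 (log2 difference -2.04, SE 0.12, adjusted p = 4.44e-08, limma). RRM2, the regulated subunit of ribonucleotide reductase, went from 9.18, 9.12, 8.94 and 8.52 to 7.62, 6.97, 6.51 and 6.68 (log2 difference -2.0, SE 0.21, adjusted p = 3.46e-06, limma). Neither gene overlapped between the sides, and RRM2 was lower again at 42 hours than at 36.

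The helicase that unwinds the origin fell as a complex. CDC45L (CDC45), which joins the MCM ring to the fork, had 9.57, 9.48, 9.30 and 9.18 on the earlier side and 8.02, 7.27, 7.33 and 7.01 on the later (log2 difference -1.97, SE 0.18, adjusted p = 9.28e-07, limma). Its partners of the GINS complex, listed in the file as Pfs2 (GINS2) and SLD5 (GINS4), were 3.80-fold and 3.91-fold lower. The ring subunits MCM2 to MCM7 had log2 differences between -1.5 for MCM3 and -0.92 for MCM7 on their main probes, all lower by the test. CDC7, the kinase that fires origins, was lower by 3.51-fold and FEN1, the nuclease that trims Okazaki fragments, by 3.74-fold. RPA3 (-0.37) and DUT (-0.67) had smaller differences that were also called lower. The exception was the file's POLA probe (POLA1, the catalytic subunit of DNA polymerase alpha), which was higher by 0.51 while its partner subunit POLA2 had a log2 difference of -1.68.

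The E2F factors that act on these genes were lower too. E2F1 had 8.94, 9.19, 8.91 and 8.78 at 24 to 33 hours and 7.47, 7.08, 6.99 and 6.81 at 36 to 45 hours (log2 difference -1.87, SE 0.14, adjusted p = 2.91e-07, limma), with no overlap. E2F2 had 9.82, 10.04, 9.63 and 9.54 and 8.26, 7.93, 7.97 and 7.95 (log2 difference -1.73, SE 0.12, adjusted p = 1.36e-07, limma). E2F7, a repressor of the same family, was detected on all 4 earlier arrays and not well above background on any of the 4 later ones, and was at least 2.60-fold lower (adjusted p = 7.63e-07, limma). CDC25A, the phosphatase that releases CDK2, was lower by 3.61-fold. Among 19 tested genes of G1 control, 10 were lower and 7 higher, with a median log2 difference of -0.25. The higher ones included inhibitors of cyclin-dependent kinases, CDKN1C at 1.35, adjusted p = 0.000398, CDKN2C at 1.18, adjusted p = 3.18e-05 and CDKN1B at 0.45, adjusted p = 0.000217, all from limma. CDKN1A, the p21 inhibitor, differed by 0.22, adjusted p = 0.00305, and CCND1, cyclin D1, by -0.18, adjusted p = 0.0211.

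Promoters of these genes are shown because their members moved together, and the words searched in them describe sequence and not binding. A promoter was taken from the RefSeq table of GRCh38.p14 where the gene matched by current symbol and had a single start on an autosome or the X chromosome, with a full-length sequence. These conditions held for 5723 of the 10669 genes. Within 250 bases before the start, an E2F word (TTTGGCGC or TTTCGCGC on either strand) was present in 1.87% of all 5723 promoters, in 7.47% of 174 promoters of genes lower by at least 2-fold and in 4 of 24 of the replication list (16.7%). Below are the last 150 bases before the start of E2F1 and of MCM6, written along the gene's own strand, with matches to the E2F words in capitals.
E2F1 (chr20:33686386-33686535, - strand): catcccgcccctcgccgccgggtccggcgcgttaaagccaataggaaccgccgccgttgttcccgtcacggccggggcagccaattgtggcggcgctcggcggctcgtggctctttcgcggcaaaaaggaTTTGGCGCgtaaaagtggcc
MCM6 (chr2:135876444-135876593, - strand): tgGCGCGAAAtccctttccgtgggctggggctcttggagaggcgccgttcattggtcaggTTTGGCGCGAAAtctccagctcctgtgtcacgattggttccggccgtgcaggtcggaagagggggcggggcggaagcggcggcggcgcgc
E2F1 has 1 match, starting 20 bases before the start, and MCM6 has 3, of which 2 overlap in opposite orientations to form a single run of capitals. The log2 difference of MCM6 was -1.46.

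Genes of mitosis also fell as a block. Of 45 tested genes, 44 were lower and none higher, with a median log2 difference of -1.20. The step beyond a straight line was called lower for 7 of the 45, and higher for CDC25B, whose difference between the sides was -0.05, adjusted p = 0.743. The kinetochore gene KNTC2 (NDC80) had 9.84, 9.76, 9.5 and 9.25 at 24 to 33 hours and 8.58, 8.18, 7.41 and 7.57 at 36 to 45 hours (log2 difference -1.65, SE 0.21, adjusted p = 2.26e-05, limma). MAD2L1, of the spindle checkpoint, had 11.69, 11.74, 11.59 and 11.38 and 10.45, 10.12, 10.04 and 9.71 (log2 difference -1.52, SE 0.13, adjusted p = 6.24e-07, limma). CCNA2, cyclin A2, had 11.69, 11.69, 11.63 and 11.31 and 10.69, 10.09, 10.00 and 9.54 (log2 difference -1.5, SE 0.18, adjusted p = 9.06e-06, limma). None of the 3 overlapped between the sides, and each was lower at 45 than at 36 hours. SPBC25 (SPC25), another kinetochore subunit outside the list, had the largest mitotic difference, 4.12-fold, with 8.90 at 36 hours and 7.56 at 45 hours.

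The 2 cell cycle lists had different courses over the late arrays. Relative to its mean at 24 to 33 hours, the median replication gene stood at -0.13 at 33 hours, -1.08 at 36 hours and -1.56 at 45 hours. The median mitotic gene stood at -0.24, -0.75 and -1.71 at the same times. Replication genes lay lower at 36 hours and mitotic genes at 45 hours, a difference between lists that was not tested.

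The CHR word (TTTGAA on either strand) was found before the start of 18 of 32 mitotic genes with a single start (56.2%), in 24.1% of genes lower by at least 2-fold and in 8.25% of all promoters. The replication list held it in 1 of 24 promoters, and the E2F words were in none of the 32 mitotic promoters. CCAAT, on either strand, stood in 75.0% of the mitotic promoters and 37.3% of all. It was not particular to genes that fell: it stood in 12 of 24 promoters of the replication list and in 8 of 12 (66.7%) of the FOXO list, which rose. The windows of KIF4A, a kinesin of the mitotic spindle, and BUB1B, a checkpoint kinase, are shown with the CHR word in capitals.
KIF4A (chrX:70289954-70290103, + strand): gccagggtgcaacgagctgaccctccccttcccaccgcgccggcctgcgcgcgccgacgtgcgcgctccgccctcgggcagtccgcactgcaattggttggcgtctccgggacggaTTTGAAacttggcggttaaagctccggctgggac
BUB1B (chr15:40160919-40161068, + strand): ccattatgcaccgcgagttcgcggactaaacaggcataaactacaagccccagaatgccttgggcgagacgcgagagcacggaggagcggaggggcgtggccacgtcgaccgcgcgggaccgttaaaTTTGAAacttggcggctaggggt
The word begins 34 bases before the start in KIF4A and 23 bases before it in BUB1B. Their log2 differences were -1.37 and -1.37.

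Genes of ribosome biogenesis also fell as a group. Of 35 ribosome biogenesis genes, 32 were lower and none higher, with a median log2 difference of -0.66, and the step was called for 21. NOL5A (NOP56), a core protein of the small nucleolar particles that modify ribosomal RNA, had 13.53, 13.42, 13.44 and 13.55 and then 12.17, 12.15, 11.79 and 11.65 (log2 difference -1.54, SE 0.10, adjusted p = 9.47e-08, limma). LYAR, a nucleolar protein, had 11.95, 11.89, 11.83 and 11.62 and 10.64, 10.53, 10.40 and 10.24 (log2 difference -1.37, SE 0.09, adjusted p = 1.13e-07, limma). Both were bright genes whose 4 late arrays lay more than 1 log2 unit below on average. NPM1, nucleophosmin, differed by -0.04, adjusted p = 0.392. The cytosolic ribosomal proteins did not share the decrease, with 9 of 49 higher and 5 lower and a median of 0.01, and cyclic loess in place of quantile normalization called 40 of them higher. The cause of that dependence was not tested.

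Proteasome subunits were lower in 26 of 30 cases and higher in none, at a smaller size (median -0.32). PSMD1, of the regulatory cap, had 11.28, 11.36, 11.42 and 11.46 and 10.72, 10.57, 10.49 and 10.29 (log2 difference -0.86, SE 0.08, adjusted p = 2.01e-06, limma). Of 21 heat shock genes 12 were lower and 3 higher, and of 21 genes of the endoplasmic reticulum chaperones and unfolded protein response 13 were lower and 3 higher. HSPE1, the mitochondrial co-chaperonin, was lower by 1.71-fold and HSPA5, the reticulum chaperone BiP, by 1.77-fold. The small heat shock protein CRYAB went the other way. It had 10.02, 9.91, 9.84 and 10.12 at 24 to 33 hours and 11.81, 11.98, 11.92 and 12.05 at 36 to 45 hours (log2 difference 1.97, SE 0.08, adjusted p = 4.85e-09, limma), and it had the smallest p of any named gene.

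FOXO targets rose as a group. Of 23 tested genes, 21 were higher and none lower, with a median log2 difference of 1.04 against 26.6% higher over all genes, and the step was called for 8. TNFSF10, the death ligand TRAIL, had log2 intensities of 5.38, 5.59, 6.25 and 7.11 at 24 to 33 hours, with 2 of the 4 arrays detected, and 9.48, 9.54, 9.43 and 9.81 at 36 to 45 hours (log2 difference 3.48, SE 0.28, adjusted p = 4.66e-07, limma). It had the largest difference of all genes named and stood higher at 30 and 33 hours than at 24 and 27. FBXO32, the ubiquitin ligase atrogin-1, had 8.24, 8.45, 8.83 and 9.51 and 11.84, 12.07, 11.98 and 12.25 on its main probe (log2 difference 3.28, SE 0.20, adjusted p = 6.45e-08, limma). The other FBXO32 probe gave a smaller difference of 1.08, from a mean of 9.63 to 10.71, so the size depended on the probe. SEPP1 (SELENOP), the secreted selenoprotein P, had 5.51, 5.59, 6.53 and 6.90, detected on 2 of 4 arrays, and 9.14, 9.25, 9.22 and 9.35 (log2 difference 3.11, SE 0.25, adjusted p = 4.62e-07, limma). In all 3 genes every late array lay above every array of 24 to 33 hours. The offset added before the log compresses dim values, so the differences of TNFSF10 and SEPP1 are understated.

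PDK4, a kinase that shuts pyruvate out of the citric acid cycle, climbed through both sides, with 5.90, 6.59, 7.36 and 8.21 and then 9.49, 9.77, 9.72 and 10.10 (log2 difference 2.76, SE 0.35, adjusted p = 1.81e-05, limma), and its step beyond a straight line was not called (0.87, adjusted p = 0.166, limma). ERBB3, the HER2 partner receptor, had 9.69, 9.86, 10.26 and 10.69 and 11.60, 11.72, 11.82 and 11.79 (log2 difference 1.61, SE 0.16, adjusted p = 2.44e-06, limma), and its other probe gave 0.76. TXNIP, which restrains glucose uptake, was higher by 2.06, adjusted p = 2.17e-06, CITED2 by 2.04, adjusted p = 3.1e-06 and BCL6 by 1.63, adjusted p = 0.000106, all from limma. CCNG2 (1.0), the arrest-linked cyclin G2, KLF9 (1.04) and PINK1 (1.26), a kinase of mitochondrial quality control, were also called. PIK3CA (-0.05, adjusted p = 0.796) and INSR, the insulin receptor (0.03, adjusted p = 0.914), did not pass the test. Relative to its 24 to 33 hour mean, the median member stood at 0.77 at 0 hours, in untreated cells, at -0.37 at 9 hours, at 0.85 at 36 hours and at 1.17 at 45 hours. FBXO32 had 12.51 at 0 hours, near its late values, whereas TNFSF10 had 6.13 at 0 hours.

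The forkhead word TGTTTAC, on either strand, was present in 5.22% of 134 promoters of genes higher by at least 2-fold, in 2 of 12 of the FOXO list and in 1.92% of all promoters. Other words were searched as well, and the forkhead word was not alone. The AP-1 words TGACTCA and TGAGTCA were also in 5.22% of the 134, in 1 of 12 of the FOXO list and in 2.83% of all promoters. The windows of SEPP1 and of ATP6V1B1, a subunit of the proton pump of acidic compartments, are shown as examples. Both are named genes that were higher and held the forkhead word in the last 150 bases before the start.
SEPP1 (chr5:42811893-42812042, - strand): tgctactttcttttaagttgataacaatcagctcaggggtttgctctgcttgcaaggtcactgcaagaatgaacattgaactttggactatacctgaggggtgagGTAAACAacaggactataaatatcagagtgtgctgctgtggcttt
ATP6V1B1 (chr2:70935750-70935899, + strand): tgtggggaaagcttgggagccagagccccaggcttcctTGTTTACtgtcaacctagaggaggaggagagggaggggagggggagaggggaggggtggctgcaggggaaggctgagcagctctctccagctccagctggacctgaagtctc
In SEPP1 the word is on the opposite strand, so that it reads GTAAACA, and begins 45 bases before the start. In ATP6V1B1 it begins 112 bases before the start. ATP6V1B1 had 9.95, 10.43, 10.64 and 11.32 and 12.83, 13.04, 13.09 and 13.42 (log2 difference 2.51, SE 0.21, adjusted p = 6.26e-07, limma).

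**Figure D2:**
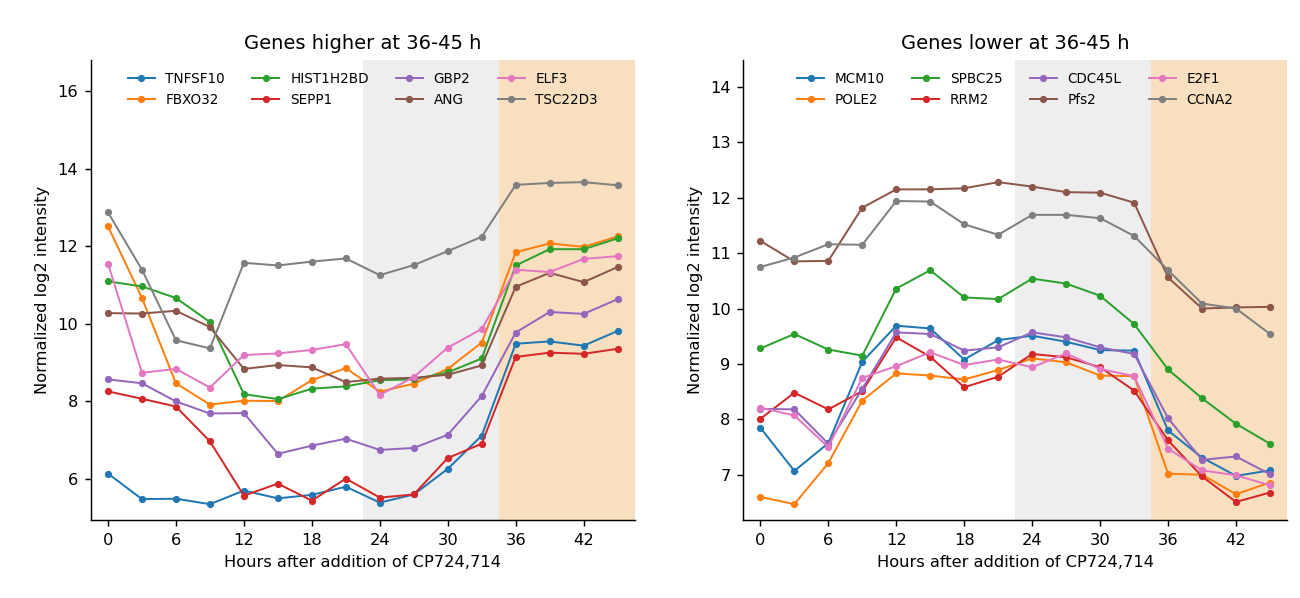
Normalized log2 intensity (vertical axis) of 8 genes higher (left) and 8 genes lower (right) at 36-45 h against hours after addition of CP724,714 (horizontal axis), with 1 point for each of the 16 arrays and the 24-33 h and 36-45 h arrays shaded grey and orange. From 33 to 36 hours all 8 genes on the left rise and all 8 on the right fall. At 0 hours FBXO32 and ELF3 (12.51 and 11.55) and also HIST1H2BD, SEPP1, GBP2, ANG and TSC22D3 stand above all their 24-33 h arrays. TNFSF10, at 6.13, does not.

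Of 25 tested death receptors, ligands and BCL2 family members, 9 were higher (36.0%) and 7 lower (28.0%), near the shares over all genes. Beside TNFSF10, which this list shares with the FOXO targets, the largest of the 9 increases were in the BH3-only genes BMF and HRK, which bind and block survival proteins. BMF had 5.90, 5.79, 6.03 and 6.85, detected on 1 of 4 arrays, and then 8.95, 8.89, 9.36 and 9.03 (log2 difference 2.92, SE 0.20, adjusted p = 1.3e-07, limma). HRK had 7.69, 7.60, 7.76 and 8.11 and 9.27, 9.35, 9.18 and 9.74 (log2 difference 1.59, SE 0.14, adjusted p = 7.18e-07, limma). CFLAR, an inhibitor of caspase-8, was higher by 0.83, adjusted p = 1.06e-05, and MCL1, a survival protein, by 0.46, adjusted p = 0.000506. The other 4 were BBC3 (0.50), BCL2L1 (0.39), BCL2L2 (0.43) and TNFRSF10D (0.50). Lower were the TRAIL receptor TNFRSF10A (-0.69, adjusted p = 1.33e-05) and the pore-forming BAX (-0.60, adjusted p = 0.000925). TNFRSF6B, a decoy receptor, was lower by 3.61-fold on its main probe, while its other probe differed by 0.05 (adjusted p = 0.724, limma). Of 26 p53 targets 13 were higher and 4 lower (median 0.21), with TP53INP1 at 1.45 and GDF15 at 0.78.

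Of 14 histone genes tested, 6 were higher and 5 lower. HIST1H2BD (H2BC5), a cluster gene that also makes polyadenylated RNA, had 8.54, 8.56, 8.74 and 9.10 and 11.50, 11.92, 11.92 and 12.20 (log2 difference 3.15, SE 0.14, adjusted p = 1.12e-08, limma). HIST2H2BE (H2BC21) and HIST1H2AC (H2AC6) were higher by 5.82-fold and 4.72-fold. These genes are near copies of their neighbours, so which member a probe reads is uncertain. The variants H2AFX (H2AX, -1.11, adjusted p = 5.14e-05) and H2AFZ (H2AZ1, -0.77, adjusted p = 5.93e-07) were lower, as was HIST1H4C (H4C3, -1.32, adjusted p = 2.62e-06), a replication-dependent gene, all from limma.

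Genes induced by glucocorticoids, which the medium supplies as hydrocortisone on both sides, were higher in 15 of 19 cases and lower in none, with a median of 0.52 and the step called for 7. TSC22D3, the leucine zipper protein GILZ, had 11.25, 11.51, 11.87 and 12.24 and 13.58, 13.63, 13.65 and 13.57 (log2 difference 1.89, SE 0.15, adjusted p = 4.62e-07, limma). ZBTB16 had 8.49, 8.74, 8.85 and 9.29 and 10.15, 10.20, 10.24 and 10.30 (log2 difference 1.38, SE 0.13, adjusted p = 1.64e-06, limma). ERRFI1, a feedback inhibitor of EGF receptors, was higher by 2.53-fold, and DUSP1, a phosphatase of MAP kinases, by 2.32-fold. FKBP5 differed by 0.22, adjusted p = 0.0385 and MT2A by 0.00, adjusted p = 0.934. KLF9 is also in the FOXO list. At 0 hours the median member stood 0.64 above its 24 to 33 hour mean, and at 36 hours 0.60.

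The circadian clock list was higher in 9 of 17 genes and lower in 1 (median 0.44), and the step was called for 8 higher and 1 lower. DBP, an output gene of the clock, had 6.99, 7.13, 7.11 and 7.10 and 8.42, 8.69, 8.48 and 8.14 (log2 difference 1.35, SE 0.12, adjusted p = 9.15e-07, limma). PER2, a clock repressor, fell from 9.88 to 7.99 over the earlier side and then stood at 9.99, 10.36, 9.99 and 9.93, so its difference of 1.11 was smaller than its step of 2.53, adjusted p = 0.00147, limma. Its 24 hour value of 9.88 lay just under its lowest late value of 9.93. PER1 and CRY2 were higher by 0.48, adjusted p = 0.0189 and 0.66, adjusted p = 0.00376, and CRY1 was lower (-0.56, adjusted p = 0.0036), all from limma.

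Lysosomal and autophagy genes were higher in 21 of 35 cases and lower in 1 (GLA, -0.65, adjusted p = 7.87e-06, limma), with a median of 0.39 and the step called higher for 10. With median scaling 20 were higher and 4 lower. GABARAPL1, which coats autophagosomes, had 10.46, 10.61, 11.07 and 11.32 and 12.41, 12.45, 12.61 and 12.57 (log2 difference 1.64, SE 0.15, adjusted p = 9.15e-07, limma). SQSTM1, the cargo receptor p62, had 9.55, 9.82, 10.02 and 10.17 and 11.14, 10.98, 11.16 and 11.12 (log2 difference 1.21, SE 0.11, adjusted p = 1.08e-06, limma). WIPI1, an early autophagy factor, was higher by 2.33-fold and LAMP2, a lysosomal membrane protein, by a log2 difference of 1.02. BECN1 (-0.08, adjusted p = 0.375) and ATG5 (0.13, adjusted p = 0.35) did not pass the test.

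Of 19 tested vesicle SNAREs and their binding proteins, which drive membrane fusion, 8 were higher and none lower, with a median of 0.25. VAMP8, of late endosomes and secretory granules, had 13.85, 13.82, 13.89 and 13.88 and 14.27, 14.40, 14.33 and 14.54 (log2 difference 0.53, SE 0.06, adjusted p = 4.04e-06, limma), a small shift on a bright probe with no overlap. VAMP5 had 7.54, 7.30, 7.66 and 7.53 and 9.25, 9.73, 9.73 and 9.75 (log2 difference 2.11, SE 0.12, adjusted p = 4.75e-08, limma). SNAP23 was higher by 0.64 on its main probe and by 0.30 on the other, which was not called (adjusted p = 0.151, limma).

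**Figure D3:**
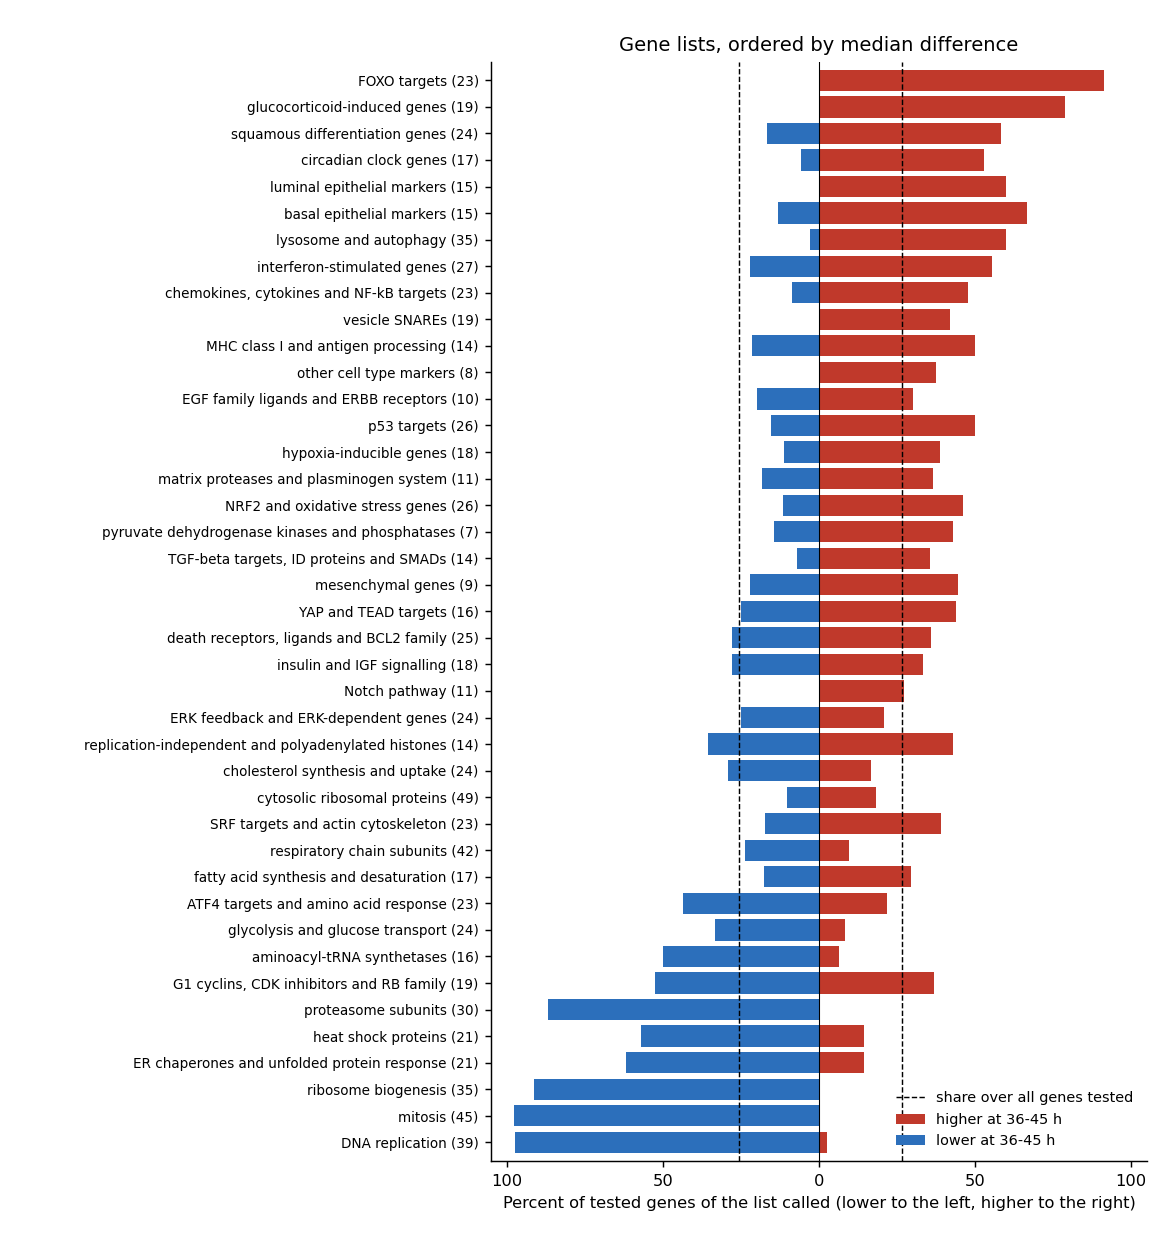
Percent of tested genes called higher (red, right) or lower (blue, left) at 36-45 h in each of 41 gene lists, named with the number of genes tested and ordered by median difference, with dashed lines at the shares over all 10669 genes (26.6% higher and 25.6% lower). DNA replication, mitosis, ribosome biogenesis and proteasome lists reach furthest to the left and FOXO targets and glucocorticoid-induced genes furthest to the right.

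Epithelial genes rose in several classes. Higher were 10 of 15 basal markers, 9 of 15 luminal markers and 14 of 24 genes of squamous differentiation, with 2, 0 and 4 lower. ELF3, an epithelial transcription factor, had 8.16, 8.62, 9.38 and 9.86 and 11.39, 11.33, 11.67 and 11.74 (log2 difference 2.53, SE 0.27, adjusted p = 3.78e-06, limma). KLK6, a secreted protease of stratified epithelia, had 9.58, 9.80, 9.97 and 10.18 and 11.34, 11.58, 11.65 and 11.71 (log2 difference 1.69, SE 0.11, adjusted p = 1.3e-07, limma). ITGB4, of the hemidesmosome, was higher by 0.99 on its main probe, and its dim other probe differed by 0.0030 (adjusted p = 0.991, limma). TP73L (TP63), a regulator of basal cells, was higher by 1.15 at dim intensities. The squamous genes did not move as a block, since SPRR1B (-0.86, adjusted p = 8.68e-05), SPRR2A (-0.84, adjusted p = 0.00811) and KRT6A (-0.68, adjusted p = 0.00136) were lower.

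Interferon-stimulated genes were also divided, with 15 of 27 higher and 6 lower. GBP2, a guanylate-binding protein, had 6.74, 6.79, 7.13 and 8.13 and 9.77, 10.30, 10.25 and 10.63 (log2 difference 3.04, SE 0.26, adjusted p = 6.54e-07, limma). STAT2 and ISGF3G (IRF9), which carry the interferon signal, were higher by 1.28, adjusted p = 1.36e-07 and 0.95, adjusted p = 2.01e-06. HERC5 had 7.97, 7.57, 7.66 and 7.53 and 6.38, 6.45, 6.04 and 6.41 (log2 difference -1.36, SE 0.14, adjusted p = 2.25e-06, limma), and IFI44 was lower by 2.45-fold. G1P2 (ISG15), a ubiquitin-like protein, was lower (-1.28, adjusted p = 2.24e-06). CFB, a complement factor, was higher by 2.97-fold, and of the 23 chemokines, cytokines and NF-kB targets 11 were higher and 2 lower.

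Among the markers of other cell types, CSF1R (1.08), CD14 (1.02) and CD68 (0.38) were higher and none was lower. These were 3 of 8 tested (37.5%), against 26.6% higher over all genes. The summed level of the list was 2858 to 3085 at 24 to 33 hours and 3882 to 4248 at 36 to 45 hours. This sum includes the 3 higher genes, so it does not show a rise of the other markers. PTPRC was detected on 1 of 4 earlier and 2 of 4 later arrays. PECAM1 (-0.14, adjusted p = 0.334) and KDR (-0.00, adjusted p = 0.998), of endothelium, did not pass the test. The part of other cells in the results above was not tested.

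Metabolic lists moved less. Of 24 genes of glycolysis and glucose transport 8 were lower and 2 higher (median -0.15). HK2, the inducible hexokinase, had 8.10, 7.94, 7.90 and 7.54 and 6.84, 6.68, 7.20 and 6.76 (log2 difference -1.0, SE 0.15, adjusted p = 5.94e-05, limma), and PGAM1 and TPI1 were lower by 1.97-fold and 1.65-fold. The transporter SLC2A1 (GLUT1) was higher by 0.26 (adjusted p = 0.032, limma), a call lost with median scaling and without any of 5 of the 8 arrays taken singly. SLC2A4 and SLC2A3 were near background and differed by 0.04 and -0.02. Of the pyruvate dehydrogenase kinases, PDK4 and PDK2 (0.44) were higher and PDK3 was lower, from 7.14, 7.30, 7.17 and 7.31 to 6.55, 6.30, 6.05 and 5.82 (log2 difference -1.04, SE 0.15, adjusted p = 4.91e-05, limma). ACLY, which makes cytosolic acetyl-CoA, was lower (log2 difference -0.34, adjusted p = 0.00159, limma). PHGDH, of serine synthesis, had 12.07, 12.03, 12.21 and 12.20 and 12.14, 12.12, 11.99 and 12.08, which overlapped (log2 difference -0.04, SE 0.06, adjusted p = 0.568, limma), and with median scaling it was called lower (-0.29). Cholesterol synthesis genes were 4 higher and 7 lower of 24, fatty acid genes 5 and 3 of 17, and respiratory chain subunits 4 and 10 of 42. With median scaling these became 2 and 11, 3 and 6, and 0 and 24, and the glycolysis list had none higher.

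Receptors and adaptors of the growth factor pathways showed a mixed picture. ERBB2, which encodes the target of the inhibitor, was near background on this array and differed by 0.02 (adjusted p = 0.932, limma). EGFR was higher by 0.25 on its main probe and by 0.67 on another, while its dimmest probe was lower (-0.64), so its direction depended on the probe, and the main probe lost its call with median scaling. IRS1, an adaptor of the insulin receptor, had 8.76, 8.80, 8.95 and 9.24 and 9.30, 9.46, 9.61 and 9.87 (log2 difference 0.62, SE 0.13, adjusted p = 0.00106, limma), with a gradual climb. IRS2 was higher by 0.37, with 10.50 at 24 hours above its lowest late value of 10.44, and lost its call with median scaling. IGF1R, the IGF-I receptor, was lower (-0.40). SGK (SGK1), a kinase of the AKT family, differed by 0.23 (adjusted p = 0.00797, limma), a call also lost with median scaling. Among ERK-dependent genes 5 of 24 were higher and 6 lower, led by FOSL1 (-1.14) downward and DUSP1 and FOS (0.97) upward, and with median scaling 3 were higher and 10 lower.

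Other large increases lay outside the lists. CYP4B1, a cytochrome P450, had 6.45, 6.52, 6.82 and 7.25 and 9.57, 9.80, 9.78 and 9.77 (log2 difference 2.97, SE 0.15, adjusted p = 1.95e-08, limma). ANG, the ribonuclease angiogenin, which shares its promoters with RNASE4, had 8.58, 8.60, 8.68 and 8.92 and 10.95, 11.31, 11.07 and 11.46 (log2 difference 2.50, SE 0.11, adjusted p = 1.12e-08, limma). BBOX1, the last enzyme of carnitine synthesis, was higher by 6.17-fold, LEMD1 by 6.83-fold and BNIPL by 5.26-fold. All 5 had no overlap between the sides.

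The remaining lists, read against 26.6% higher and 25.6% lower over all genes, ranged from well above to below those shares. Of 23 targets of ATF4 and the amino acid response 10 were lower and 5 higher, and of 16 aminoacyl-tRNA synthetases 8 were lower (50.0%) and 1 higher, the 8 becoming 13 with median scaling. Higher and lower were 7 and 2 of 18 hypoxia-inducible genes, 12 and 3 of 26 genes of NRF2 and oxidative stress, and 7 and 3 of 14 genes of MHC class I. The counts were 7 and 4 of 16 for YAP and TEAD targets, 9 and 4 of 23 for SRF targets, 5 and 1 of 14 for TGF-beta targets and 3 and 0 of 11 for the Notch pathway. With median scaling the SRF targets became 5 and 7 and the TGF-beta targets 3 and 2. They were 4 and 2 of 11 for matrix proteases and 4 and 2 of 9 for mesenchymal genes, 6 and 5 of 18 for insulin and IGF signalling, 3 and 2 of 10 for EGF family ligands and receptors and 3 and 1 of 7 for the pyruvate dehydrogenase kinases and phosphatases. Single members stood out in some of them, such as NDRG1 (1.09) among the hypoxia-inducible genes, FTH1, the ferritin heavy chain (0.77), among the oxidative stress genes, and PLAU, urokinase (-1.0), among the proteases.

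The late change ran against an earlier one in the same cells. Between 0 to 9 hours and 12 to 21 hours, 1078 genes (10.1%) were higher and 1034 (9.69%) lower by the same test. Counted as probes these were 1118 and 1083, which became 1952 and 606 with median scaling, 689 and 606 without the 3 hour array, 658 and 602 without 12 hours, 574 and 545 without 15 hours and 744 and 666 without 18 hours. Of the 2833 genes higher at 36 to 45 hours, 705 (24.89%) had been lower at 12 to 21 hours and 84 (2.965%) higher. Of the 2732 genes lower at 36 to 45 hours, 741 (27.12%) had been higher and 59 (2.16%) lower. Among the 5104 genes not called late, 4.957% had been higher and 5.29% lower. Across the 10669 genes the 2 differences correlated at r = -0.568 (Spearman -0.525), and at r = -0.578 to -0.596 with the other scalings. The correlation is across genes, which are not independent, and carries no p. For 36 minus 33 hours against 12 minus 9 hours, single arrays, it was r = -0.247.

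The lists differed in how many members were called in the earlier comparison. Of the 39 replication genes, 29 had been higher and 1 lower at 12 to 21 hours, and of the 45 mitotic genes 27 and 0. Of the 35 lysosomal and autophagy genes, 3 had been higher and 13 lower. FOXO targets had been lower in 5 of 23 cases, among them SEPP1 at -2.07, adjusted p = 0.0012, limma, and higher in none. For the glucocorticoid-induced genes the counts were 1 and 1 of 19, and for the proteasome 5 and 0 of 30. The 0 to 9 hour side joins untreated with treated cells. At 0, 3, 6 and 9 hours the median glucocorticoid-induced gene stood at 0.64, -0.07, -0.20 and -0.27. The median FOXO target stood at 0.77, 0.27, -0.33 and -0.37. Such change inside a side widens its spread, so few calls do not show that these 2 lists stayed level. HIST1H2BD had the earlier difference -2.45, adjusted p = 0.000274, limma, and TNFSF10 had 0.03, adjusted p = 0.918, limma.

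**Figure D4:**
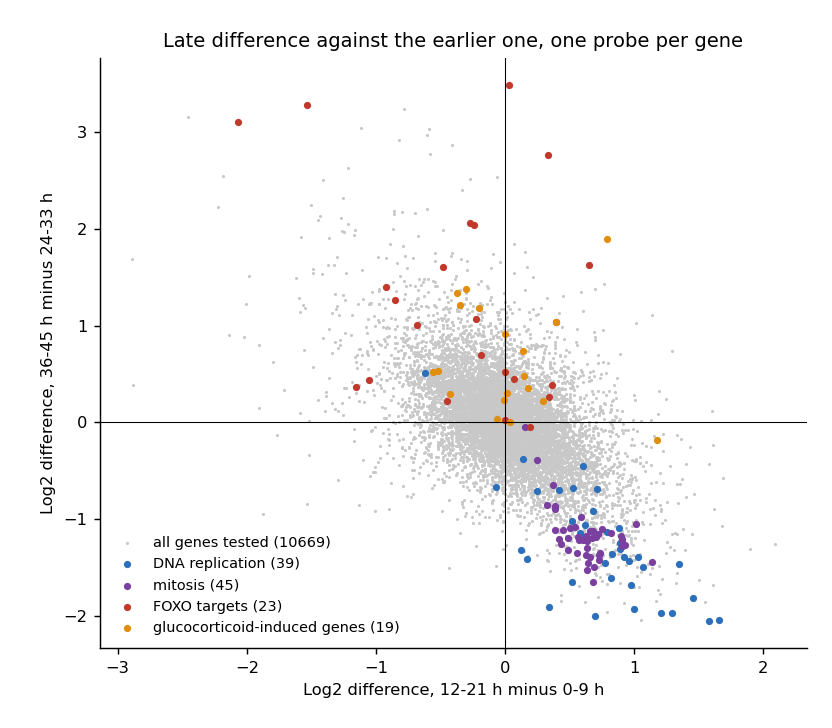
Log2 difference of 36-45 h minus 24-33 h (vertical axis) against that of 12-21 h minus 0-9 h (horizontal axis), with 1 point for the main probe of each of 10669 genes and 4 gene lists coloured. Replication (blue) and mitotic genes (purple) fill the lower right, and FOXO targets (red) lie mostly above 0 late but on both sides of 0 in the earlier comparison.

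**Figure D5:**
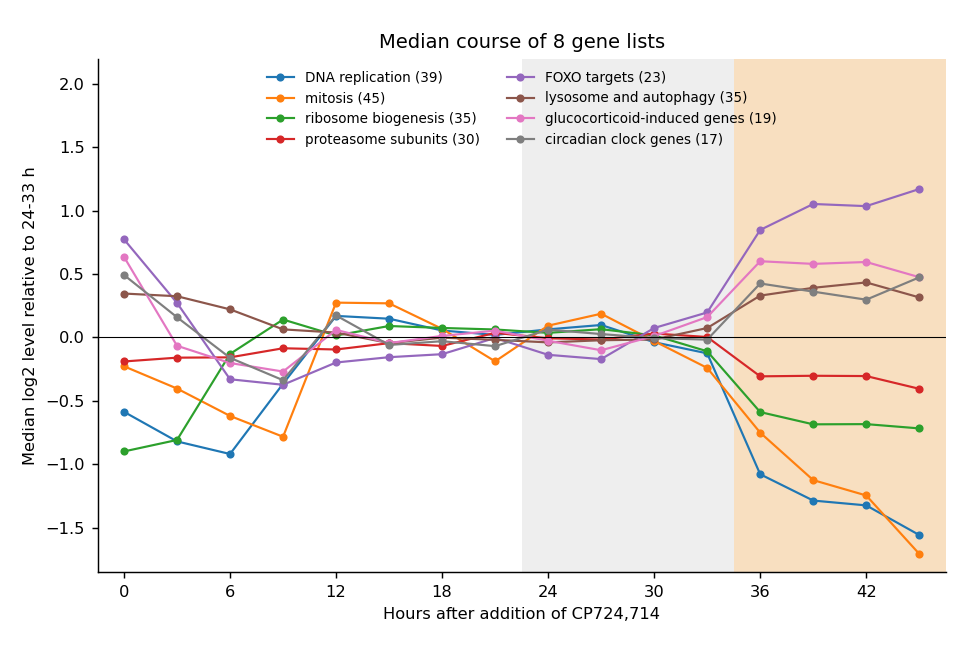
Median log2 level of 8 gene lists relative to each gene's mean at 24-33 h (vertical axis) against hours after addition of CP724,714 (horizontal axis), with 1 point for each array and the number of genes in brackets. The replication and mitosis lists fall to -1.56 and -1.71 at 45 hours. The FOXO, glucocorticoid, clock, and lysosome and autophagy lists stand above 0 at 0 hours and again at 36 hours.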

How the data were processed

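The members of this comparison, the gene lists and the promoter words were chosen with earlier results of these data known. The authors deposited bead intensity values on a linear scale, without scaling of the arrays to each other, and each value has a detection p-value. Their methods state quantile normalization across compared arrays; the summary software, background correction and build are not given in the sources used here. In R 4.3.3 with limma 3.58.1, the 16 arrays were corrected with normexp and an offset of 16, quantile normalized and log2 transformed. The level of the negative control beads was worked out from the detection p of 19092 rows whose p was a whole multiple of 1 in 708 within 0.001. The number of arrays limits the precision, and with 4 time points a side the residual degrees of freedom were 6.

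Probes detected (p under 0.05) on 3 or more of the 8 arrays were tested with limma (eBayes with an intensity trend, two-sided, Benjamini-Hochberg over all 11248 probes). Time points are separate cultures and not replicates of a condition, so p-values measure a difference against the spread between time points. The step was tested with a common slope over the 8 time points. A gene is represented by its brightest probe. Of 10684 symbols tested, 7848 were current, 2035 were a synonym of 1 gene and 801 were unmatched; 41 lists were matched by current symbol, and promoters come from RefSeq (GRCh38.p14). Named genes are the 15 largest called differences in each direction with no overlap between sides and detection on all arrays of the higher side, up to 3 genes of each list and genes the study discusses; other list members are named as examples, after their values were seen. A probe not well above background on a whole side gets a bound against the lowest detected intensity of each array. The scripts were tested on simulated data. Alternatives were median scaling, cyclic loess, raw intensities, an offset of 50, different filters, priors and thresholds, other sets of arrays and leaving out each array. Figures were drawn with matplotlib 3.10.9. No column went unused.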

Additional observations from a re-analysis of the deposited data

Results flagged for a closer look

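Over the 87 genes named, 13 of 174 sets of 4 arrays held an array far from the other 3; the values below are its gap to the nearest divided by the range, past Dixon's critical value. Chance flags about 1 in 20 sets, and time points of a side are not replicates. At 36 hours 5 genes stood between the earlier side and the later arrays: CYP4B1 (0.871), HIST2H2BE (0.921) and VAMP5 (0.961) were low there, and E2F2 (0.883) and Pfs2 (0.939) were high. At 45 hours TPI1 (0.924, at 13.16 against 13.65 and above) and PGAM1 (0.918, at 8.63 against 9.34 and above) were low, and KRT17 (0.834) and EGFR (0.876) were high. PER2 was high at 39 hours (0.857) and HERC5 low at 42 hours (0.847). On the earlier side SNAP23 was low at 30 hours (0.88) and CCNA2 low at 33 hours (0.84).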

How the results depend on the processing

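The counts over all probes of 36 to 45 against 24 to 33 hours stayed within 1.5 times under every alternative run: 2218 to 3011 probes higher and 2225 to 3627 lower when the processing or threshold changed, 2609 to 2857 and 2578 to 2872 without each array in turn, 2845 and 2786 without 33 and 36 hours, 2055 and 2081 for 30 and 33 against 36 and 39 hours. The step beyond a straight line moved more, to 488 higher and 418 lower without an intensity trend, 339 and 281 at an adjusted p under 0.01, and 415 to 916 and 370 to 939 without each array. The earlier comparison gave 1952 and 606 with median scaling, 417 and 385 at an adjusted p under 0.01, and 574 to 1605 and 545 to 1502 without each array. Counts by gene list depended more on the scaling: of 82 counts (higher and lower in 41 lists), 21 moved by over 1.5 times with median scaling, 5 with cyclic loess and 1 without background correction. The cause of these moves was not tested. Over 18 settings, 2682 values were compared for the 149 genes of the naming rule. Of these, 2647 kept their side of the threshold and, where called, their direction. Another 32 lost the call, 3 gained it and 0 reversed with a call in either setting. A change of sign without a call in either setting counted as kept. With median scaling the main probes of PHGDH (-0.29) and INSIG1 (-0.29) became lower, and those of SLC2A1, EGFR, IRS2, SGK and SDHC lost their calls. The other INSIG1 probe was already lower with quantile normalization (-0.46, adjusted p = 0.0167, limma). The fit on all 16 arrays lost 17 calls, among them PER2, ACLY, HK2 and FOS. No paired analysis was possible because each time point has 1 array and no replicate number is shared. Dim probes are limited by the background, which lay between 165.8 and 184.9 on the 8 arrays.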
